A study of Homo sapiens with 3 samples.

Results

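The U3 small nucleolar RNA (snoRNA) gene copies were described in RWPE1 cells, a line of immortalised human prostate epithelium, together with the gene of the related U8 snoRNA. The members were the entries of the deposited gene count table whose Ensembl identifiers map to SNORD3A, SNORD3B-1, SNORD3B-2, SNORD3C, SNORD3D and SNORD118, which is 6 genes of 58037 listed. All 6 had counts in all 3 libraries. The genes were picked with values in view, because SNORD3B-1 had been noted for its high level in the OLFM4-knockout library, so the difference of these genes between the OLFM4-knockout and OLFM4-wild libraries is given as a description. SNORD3D is listed under a pair of entries with identical counts and was used once.

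The series holds 3 libraries of total RNA depleted of ribosomal RNA, 1 from OLFM4-wild, 1 from OLFM4-knockout and 1 from cells labelled OLFM4-active. OLFM4 encodes olfactomedin 4, a secreted glycoprotein, and all 3 lines came from the same parent line, RWPE1. Per the study's methods, stable lines were made by transfecting CRISPR/Cas9 nickase plasmids for the knockout or CRISPR/Cas9 activation plasmids, with a repair plasmid, and by selection in puromycin. The study calls the GFP-expressing OLFM4-knockout and OLFM4-wild cells clones, and RNA was taken from bulk cells sorted for GFP. The same methods state that activation plasmids were used to make the OLFM4-wild GFP reporter cells, so how the OLFM4-wild library and the one labelled OLFM4-active differ in construction is not given in the sources used here, nor is the number of clones behind a library.

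U3 is the most abundant snoRNA of the box C/D class in human cells and, unlike most of that class, does not guide methylation. It base-pairs with the precursor of the ribosomal RNAs and, with its proteins, nucleates the small subunit processome, the particle in which the precursor is cut to release 18S rRNA. U8 acts in the same nucleolar pathway on the large subunit side and is required for maturation of 5.8S and 28S rRNA. Both are transcribed by RNA polymerase II from promoters like those of the spliceosomal snRNAs, and U3 comes from several nearly identical gene copies.

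The 5 U3 copies lie on chromosome 17 of GRCh38. SNORD3B-1 (19061912 to 19062669, plus strand) and SNORD3B-2 (19063346 to 19064136, minus strand) are neighbours in opposite orientation. SNORD3D lies at 19112419 to 19112636 on the minus strand. SNORD3A (19188016 to 19188714, plus strand) and SNORD3C (19189665 to 19190245, minus strand) are also neighbours in opposite orientation. SNORD118 lies apart on the same chromosome, at 8173454 to 8173587 on the minus strand, inside the span of TMEM107. In GENCODE version 44 the entries of the U3 copies are 218 to 791 bases long, whereas the RNA itself, in RefSeq's annotation of GRCh38, is 217 bases in each copy.

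The 5 RNAs are shown because how far they differ sets how their reads could be assigned. They are written 5′ to 3′ as DNA from GRCh38. In SNORD3A the capitals mark the letters TGATGA (positions 158 to 163) and the last CTGA (positions 209 to 212), which are the box C and box D consensus letters; in the other copies the capitals mark bases that differ from SNORD3A.
SNORD3A: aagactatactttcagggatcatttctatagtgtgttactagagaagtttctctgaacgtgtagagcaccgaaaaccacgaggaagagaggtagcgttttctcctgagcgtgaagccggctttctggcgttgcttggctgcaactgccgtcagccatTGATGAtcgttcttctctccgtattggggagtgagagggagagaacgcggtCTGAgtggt
SNORD3B-1: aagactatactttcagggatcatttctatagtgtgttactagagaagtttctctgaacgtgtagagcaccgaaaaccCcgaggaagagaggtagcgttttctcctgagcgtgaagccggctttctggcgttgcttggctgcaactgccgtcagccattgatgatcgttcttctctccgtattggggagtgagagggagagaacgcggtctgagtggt
SNORD3B-2: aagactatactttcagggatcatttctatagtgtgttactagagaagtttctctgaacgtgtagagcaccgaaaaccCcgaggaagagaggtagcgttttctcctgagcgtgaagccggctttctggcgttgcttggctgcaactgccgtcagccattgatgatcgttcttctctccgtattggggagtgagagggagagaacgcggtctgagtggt
SNORD3C: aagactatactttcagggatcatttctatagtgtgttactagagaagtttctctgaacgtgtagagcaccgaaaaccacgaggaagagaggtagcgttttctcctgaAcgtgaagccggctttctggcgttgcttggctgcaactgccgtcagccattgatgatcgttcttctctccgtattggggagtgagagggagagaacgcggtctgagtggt
SNORD3D: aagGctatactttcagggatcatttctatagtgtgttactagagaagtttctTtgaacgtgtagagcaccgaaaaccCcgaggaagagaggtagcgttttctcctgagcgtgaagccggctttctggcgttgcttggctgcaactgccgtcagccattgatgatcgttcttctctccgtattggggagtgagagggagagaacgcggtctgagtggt

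The RNAs of SNORD3B-1 and SNORD3B-2 are identical over all 217 bases. With the SNORD3A base first, the position counted from 1 at the 5′ end of the RNA and the base of the copy last, the differences were A78C in SNORD3B-1, SNORD3B-2 and SNORD3D, G108A in SNORD3C, and A4G and C53T in SNORD3D. Identity to SNORD3A was therefore 99.5% for SNORD3B-1, SNORD3B-2 and SNORD3C and 98.6% for SNORD3D. The TGATGA and the last CTGA were at the same positions in all 5 copies. CTGA also occurs at 104 to 107 in all 5 and at 53 to 56 in 4 of them, where C53T removes it from SNORD3D. Only the RNA strand of the members was searched. Of 382075 windows of 217 bases on chromosome 17, 7.51% hold TGATGA and 67.5% hold CTGA on the plus strand, and 12.6% and 89.9% hold them on either strand, so the shorter motif is a common one.

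The SNORD3B copies differ from each other just past the RNA. The 80 bases that follow each of them are shown with their 2 differences in capitals, because reads of these copies can be told apart only outside the RNA.
SNORD3B-1: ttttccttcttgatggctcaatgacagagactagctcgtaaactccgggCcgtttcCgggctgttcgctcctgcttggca
SNORD3B-2: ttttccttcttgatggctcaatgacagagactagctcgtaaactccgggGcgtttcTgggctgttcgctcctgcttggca

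The authors kept read pairs that aligned to 1 place. Over the whole reference, 0 of the 143 windows of 75 bases, the length of a read, inside the RNA of SNORD3B-1 occur once, and likewise 0 of 143 for SNORD3B-2. The same measure gave 45 of 143 for SNORD3A, 75 of 143 for SNORD3C and 53 of 143 for SNORD3D. Over the full entries, 163 of 684 windows of SNORD3B-1 and 207 of 717 of SNORD3B-2 occur once, all of them downstream of the RNA. For SNORD118, 60 of 60 windows occur once. Its entry of 134 bases holds no 150-base fragment, so its counted pairs are shorter or reach past the entry. Thus a uniquely aligned pair of SNORD3B-1 or SNORD3B-2 that matches the reference has to reach past the 3′ end of the RNA, whereas the pairs of SNORD3A, SNORD3C and SNORD3D can lie within it. The 2 reads of a 150-base fragment inside the RNA together match 1 place at 68 of 68 positions for SNORD3A and for SNORD3C and at 53 of 68 for SNORD3D. For a 200-base fragment this holds at 18 of 18 positions of SNORD3D and at 0 of 18 of SNORD3A and of SNORD3C. The counts of the copies are therefore counts of assignable pairs, not of molecules, and the share of all U3 pairs that they hold was not tested.

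**Figure D1:**
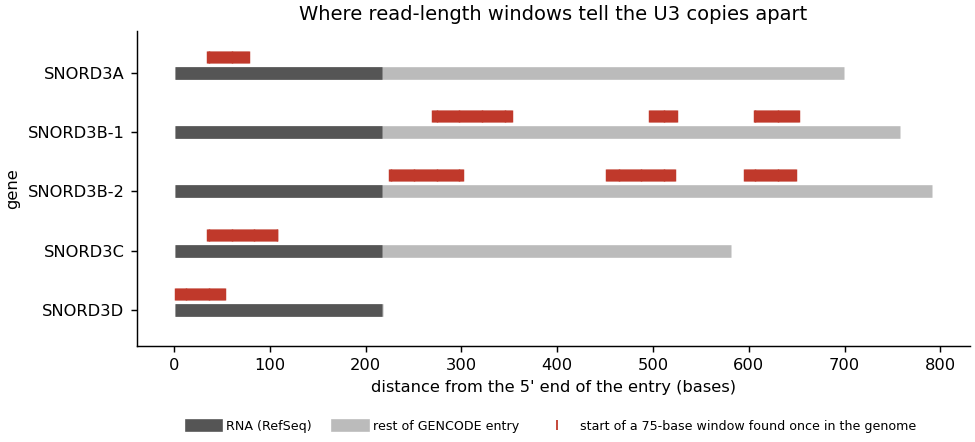
Map of the 5 U3 entries, drawn to scale by distance in bases from the 5′ end of each entry; dark bars are the RNA, pale bars the rest of the entry and red marks the starts of 75-base windows that occur once in the reference. Red marks lie inside the RNA in SNORD3A, SNORD3C and SNORD3D and only downstream of it in SNORD3B-1 and SNORD3B-2.

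Read pairs assigned to genes numbered 16309906 in the OLFM4-wild, 58837147 in the OLFM4-knockout and 23224216 in the OLFM4-active-labelled library. Levels are given as CPM, counts relative to a library size scaled with TMM factors, and differences as log2 fold changes of CPM. This scaling places the log2 fold changes 0.35 higher than library totals do for OLFM4-knockout against OLFM4-wild, 0.11 higher for the OLFM4-active-labelled library against OLFM4-wild and 0.24 higher for OLFM4-knockout against the OLFM4-active-labelled library. With 1 library per condition there is no test, and brackets hold exact 95% Clopper-Pearson intervals, which cover counting error only and compare libraries, not conditions. OLFM4 itself had 214 counts (11.8 CPM) in the OLFM4-wild, 131 (2.55 CPM) in the OLFM4-knockout and 16 (0.67 CPM) in the OLFM4-active-labelled library. Its log2 fold changes against OLFM4-wild were −2.20 in OLFM4-knockout and −4.10 in the library labelled OLFM4-active. The library labelled OLFM4-active thus had the lowest OLFM4 level, against its label. Of the prostate cell markers, all 7 basal genes were detected (summed 18944, 41509 and 22969 CPM in OLFM4-wild, OLFM4-knockout and the library labelled OLFM4-active), whereas 6 luminal genes summed to 10.6, 6.92 and 6.53 CPM, 2 of them reached a mean of 1 CPM with a median log2 fold change of −0.55 in OLFM4-knockout against OLFM4-wild, and KLK3, KLK2 and MSMB did not exceed 2 counts in any library. Of the markers of other cell types, CD3E, LYZ, CDH5, LUM, COL3A1 and DES had 0 counts in all 3 libraries, and the summed levels were at most 55.3 CPM for 7 fibroblast or smooth muscle genes, 1.76 CPM for 4 endothelial genes and 0.565 CPM for 5 leukocyte genes.

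SNORD3A, the copy with the highest count, had 11160 counts in the OLFM4-wild, 99688 in the OLFM4-knockout and 33667 in the library labelled OLFM4-active. These are levels of 614 CPM (603 to 626), 1942 CPM (1930 to 1954) and 1409 CPM (1394 to 1424). The level was highest in OLFM4-knockout and lowest in OLFM4-wild, and the counting intervals of the 3 libraries did not overlap. By mean CPM, SNORD3A ranked 1st of the 165 snoRNA genes whose mean over the libraries reached 1 CPM.

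SNORD3C, the neighbour of SNORD3A, had 2492, 20475 and 7372 counts in the same order of libraries, or 137 CPM (132 to 143), 399 CPM (393 to 404) and 309 CPM (302 to 316). SNORD3B-2 had 2008, 14783 and 5279 counts, or 111 CPM (106 to 115), 288 CPM (283 to 293) and 221 CPM (215 to 227). Both copies had the order of libraries seen for SNORD3A. SNORD3D had 920, 10843 and 2531 counts, or 50.6 CPM (47.4 to 54.0), 211 CPM (207 to 215) and 106 CPM (102 to 110). SNORD3B-1 had 185, 4118 and 655 counts, or 10.2 CPM (8.77 to 11.8), 80.2 CPM (77.8 to 82.7) and 27.4 CPM (25.4 to 29.6). Each of the 5 U3 copies was thus lowest in OLFM4-wild, intermediate in the library labelled OLFM4-active and highest in OLFM4-knockout, with no overlap of counting intervals.

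SNORD118, the U8 gene, did not follow that order. It had 26 counts in the OLFM4-wild, 411 in the OLFM4-knockout and 200 in the library labelled OLFM4-active. The levels were 1.43 CPM (0.935 to 2.10), 8.01 CPM (7.25 to 8.82) and 8.37 CPM (7.25 to 9.61). The OLFM4-knockout library and the library labelled OLFM4-active overlapped and both lay above OLFM4-wild, whose value rests on 26 read pairs.

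**Figure D2:**
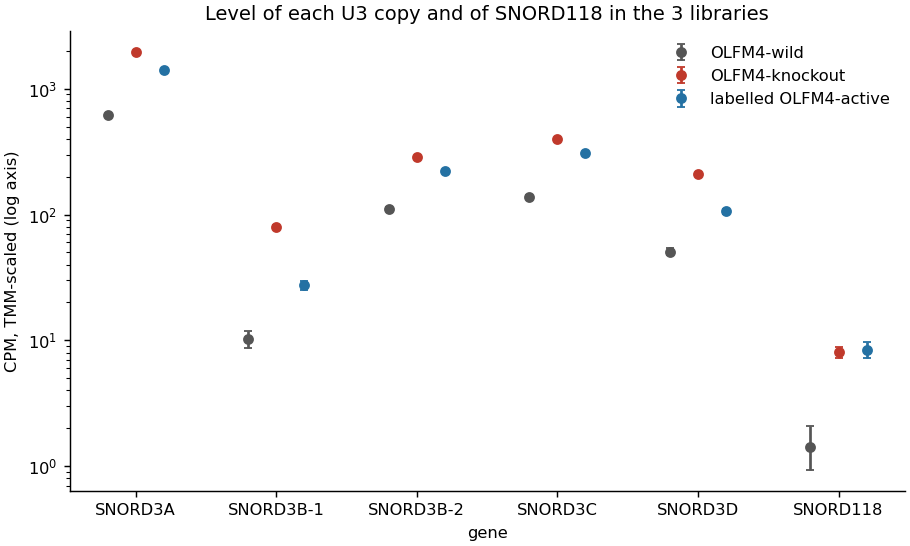
CPM of each U3 copy and of SNORD118 (log axis) in the OLFM4-wild (grey), OLFM4-knockout (red) and OLFM4-active-labelled (blue) libraries; points are 1 library each and bars are 95% counting intervals. The OLFM4-wild point is the lowest for all 6 genes, and the red point is the highest for the 5 U3 copies but not for SNORD118.

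The order of the copies was the same in each library, with SNORD3A above SNORD3C, SNORD3B-2, SNORD3D and SNORD3B-1. Since each RNA is 217 bases long, the order also holds per length of RNA, where the OLFM4-wild levels run from 46.9 CPM per kb of RNA for SNORD3B-1 to 2830 for SNORD3A. SNORD118 was lowest, with 10.4 CPM per kb of its 137-base RNA in OLFM4-wild, 58.4 in OLFM4-knockout and 61.1 in the library labelled OLFM4-active. The counting intervals of neighbours in this order did not overlap in any library. Division by RNA length has little meaning for SNORD3B-1 and SNORD3B-2, whose unique windows all lie past the RNA. Per kb of GENCODE entry the order was not kept. In OLFM4-knockout SNORD3D was at 969 CPM per kb of entry, SNORD3C at 687 and SNORD3B-2 at 364. SNORD118 stayed lowest by this measure in OLFM4-wild and OLFM4-knockout. In the library labelled OLFM4-active it was at 62.5 and SNORD3B-1 at 36.2. Because the number of assignable positions differs between copies, the order of counts is not an order of transcription.

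Summed over the 5 copies, U3 had 16765 counts in OLFM4-wild, 149907 in OLFM4-knockout and 49504 in the library labelled OLFM4-active. These sums made up 0.103%, 0.255% and 0.213% of all gene counts, and 23.7%, 34.3% and 31.9% of all snoRNA counts. The summed level was 923 CPM (909 to 937), 2920 CPM (2906 to 2935) and 2072 CPM (2054 to 2090). U3 was thus lowest in OLFM4-wild both among all genes and among snoRNAs. In bulk RNA, fewer cells of a type and less RNA per cell cannot be told apart.

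The first question of the design is how OLFM4-knockout cells differ from OLFM4-wild cells. All 5 U3 copies and U8 were higher in OLFM4-knockout. Log2 fold changes were 1.66 (1.63 to 1.69) for SNORD3A, 1.54 (1.48 to 1.60) for SNORD3C and 1.38 (1.31 to 1.45) for SNORD3B-2. These 3 copies, which hold most U3 counts, lay within a narrow range. SNORD3D was further up, at 2.06 (1.96 to 2.16), and SNORD3B-1 furthest, at 2.97 (2.77 to 3.20), or 7.86-fold. The value for SNORD118 was 2.46 (1.91 to 3.12). Summed U3 was 3.17-fold higher, a log2 fold change of 1.66 (1.64 to 1.69), and 1.64 without SNORD3B-1, so the copy with the highest fold change barely moved the sum. Log2 fold changes above 1 were seen for 6 of 6 members and above 2 for 3 of 6. Of the 16600 genes whose mean reached 1 CPM, 5.77% and 0.663% passed the same marks. Of the 159 other snoRNA genes among them, 64 lay above 1 and 13 above 2. The members were picked on this comparison, and nothing is read from these counts. On library totals, the log2 fold changes were 1.31 for SNORD3A, 1.19 for SNORD3C, 1.03 for SNORD3B-2, 1.71 for SNORD3D, 2.62 for SNORD3B-1 and 2.11 for SNORD118.

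All 6 members were again higher when the OLFM4-active-labelled library was set against OLFM4-wild. Both comparisons use the same OLFM4-wild library, so their values are not independent. The U3 copies lay close together, at log2 fold changes of 1.20 (1.17 to 1.23) for SNORD3A, 1.17 (1.10 to 1.24) for SNORD3C, 0.999 (0.93 to 1.07) for SNORD3B-2, 1.06 (0.96 to 1.18) for SNORD3D and 1.43 (1.19 to 1.67) for SNORD3B-1. SNORD118 stood apart at 2.52 (1.95 to 3.20). Summed U3 had a log2 fold change of 1.17 (1.14 to 1.19), or 2.25-fold. The value exceeded 1 for 5 of 6 members, SNORD3B-2 lying just under that mark, and exceeded 2 for 1 of 6. Of the 16600 genes 3.78% and 0.506% did, and of the 159 other snoRNA genes 61 and 7 did. On library totals the values were 1.08 for SNORD3A, 1.05 for SNORD3C and 0.88 for SNORD3B-2. SNORD3D was at 0.95, SNORD3B-1 at 1.31 and SNORD118 at 2.41 on that scale.

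The OLFM4-knockout library against the library labelled OLFM4-active does not use OLFM4-wild. It does use the OLFM4-knockout counts for which SNORD3B-1 was noted, so its values are a description as well. Here the copies divided into a lower and a higher set. SNORD3A was at 0.46 (0.44 to 0.48), SNORD3B-2 at 0.38 (0.34 to 0.43) and SNORD3C at 0.37 (0.33 to 0.41). SNORD3D was at 0.995 (0.93 to 1.06) and SNORD3B-1 at 1.55 (1.43 to 1.67), the highest value of 165 snoRNA genes. SNORD118 was at −0.07 (−0.31 to 0.19), an interval that includes 0. Of 6 members, 5 lay above 0 and 1 above 1, against 56.7% and 2.95% of the 16600 genes. Of the 159 other snoRNA genes, 85 lay above 0 and 7 above 1. Summed U3 was at 0.50 (0.48 to 0.51), and at 0.26 on library totals, where part of the difference is taken up by the scaling.

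**Figure D3:**
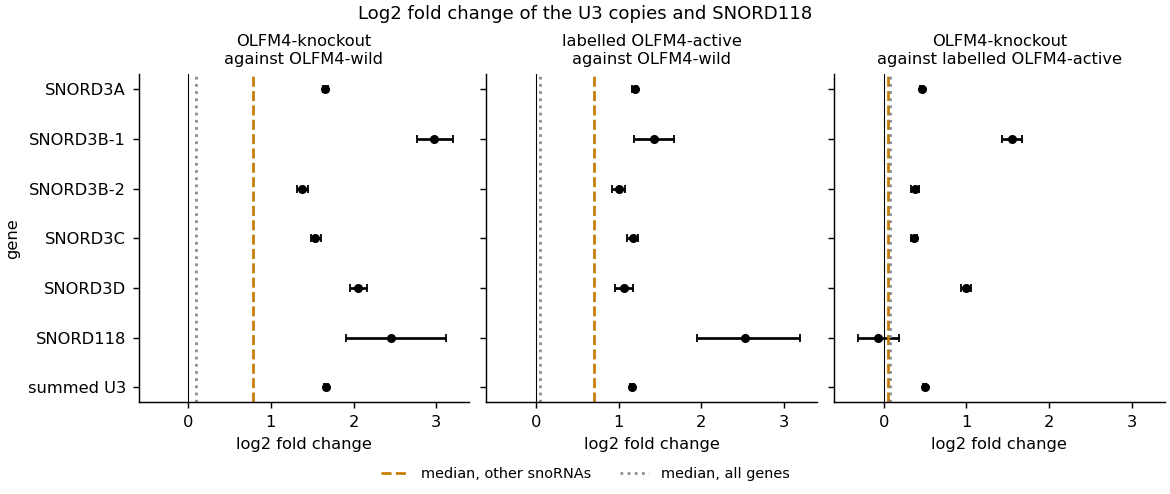
Log2 fold change of each member and of summed U3 in the 3 comparisons, with 95% counting intervals; dashed and dotted lines are the medians of 159 other snoRNAs and of all 16600 genes. SNORD3B-1 and SNORD3D lie to the right of the other U3 copies in both panels that use OLFM4-knockout, while in the OLFM4-active-labelled library against OLFM4-wild the U3 copies lie between 0.999 and 1.43.

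The ratio between copies within a library does not depend on library size. It can depend on fragment length, because the positions where a pair is unique change with it and differ between copies. Fragment lengths of the 3 libraries were not compared. SNORD3B-1 and SNORD3B-2 share the same RNA, and their pairs are unique only where they reach past it. Their ratio is therefore not one of the RNA itself. For 100 counts of SNORD3B-2, SNORD3B-1 had 9.21 counts (7.88 to 10.7) in OLFM4-wild. It had 12.4 (11.4 to 13.5) in the library labelled OLFM4-active and 27.9 (26.9 to 28.8) in OLFM4-knockout. The ratio was highest in OLFM4-knockout, and the intervals of the other two libraries did not overlap either but lay close. SNORD3B-1 had been noted for its level in OLFM4-knockout, so its ratios and shares are given as a description. For 100 counts of SNORD3A, SNORD3D had 8.24 (7.70 to 8.82) in OLFM4-wild, 7.52 (7.22 to 7.83) in the library labelled OLFM4-active and 10.9 (10.7 to 11.1) in OLFM4-knockout. SNORD3D thus also had a higher ratio of assignable pairs in OLFM4-knockout than in the other two libraries. For SNORD3C the same ratio was 22.3 (21.4 to 23.3), 21.9 (21.3 to 22.5) and 20.5 (20.2 to 20.9) in OLFM4-wild, the OLFM4-active-labelled library and OLFM4-knockout, and for SNORD3B-2 it was 18.0 (17.1 to 18.9), 15.7 (15.2 to 16.1) and 14.8 (14.6 to 15.1). These 2 copies were lowest in OLFM4-knockout relative to SNORD3A.

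As shares of summed U3, SNORD3A held 66.6% in OLFM4-wild, 66.5% in OLFM4-knockout and 68.0% in the library labelled OLFM4-active. SNORD3B-1 held 1.10%, 2.75% and 1.32%, and SNORD3D held 5.49%, 7.23% and 5.11% in the same order. SNORD3C held 14.9%, 13.7% and 14.9%, and SNORD3B-2 held 11.98%, 9.86% and 10.7%. SNORD3A therefore held about the same part of the total. The shares of SNORD3C and SNORD3B-2 were lower in OLFM4-knockout than in OLFM4-wild although their levels were higher, because SNORD3D and SNORD3B-1 were higher by more. These are shares of assignable pairs, which can depend on fragment length as the ratios can. U8 had 0.155 counts (0.101 to 0.227) per 100 U3 counts in OLFM4-wild and 0.274 (0.248 to 0.302) in OLFM4-knockout. In the library labelled OLFM4-active it had 0.404 (0.3499 to 0.464), so it was highest relative to U3 there. This ratio can depend on fragment length as well.

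**Figure D4:**
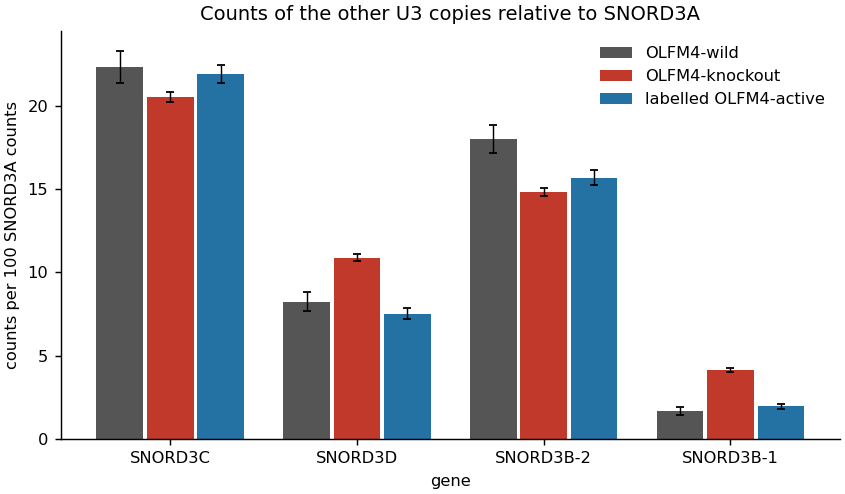
Counts of SNORD3C, SNORD3D, SNORD3B-2 and SNORD3B-1 per 100 SNORD3A counts in the OLFM4-wild (grey), OLFM4-knockout (red) and OLFM4-active-labelled (blue) libraries, with 95% counting intervals. The red bar is the highest for SNORD3D (10.9) and SNORD3B-1 (4.13) and the lowest for SNORD3C (20.5) and SNORD3B-2 (14.8).

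Genes that overlap a member on the same strand were examined for shared reads. SNORD3D lies inside the long noncoding RNA gene ENSG00000262202 (chromosome 17, 19112000 to 19112636), which had 936, 11159 and 2629 counts in OLFM4-wild, OLFM4-knockout and the library labelled OLFM4-active. That is only 16, 316 and 98 more than SNORD3D, so the 2 entries cannot be told apart. The log2 fold changes of this remainder against OLFM4-wild were 2.76 in OLFM4-knockout and 2.18 in the library labelled OLFM4-active, from a baseline of 16 counts. SNORD118 lies inside TMEM107 (8172457 to 8176399), which encodes a protein of the ciliary transition zone. TMEM107 had 296, 1226 and 424 counts, and its log2 fold change in OLFM4-knockout against OLFM4-wild was 0.55 (0.37 to 0.74). If the counts of SNORD118 are subtracted, 270, 815 and 224 remain and the value is 0.09, and −0.66 for the OLFM4-active-labelled library against OLFM4-wild. On that subtraction, the difference seen for SNORD118 was not seen for the remainder of TMEM107. Whether each SNORD118 pair was also counted in TMEM107 was not checked.

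The table holds 61 entries annotated as U3, 55 of them outside the members. Of these 55, 41 had no count in any library and the mean of 2 reached 1 CPM. Their summed counts were 3.73%, 1.26% and 1.83% of the members' sum in OLFM4-wild, OLFM4-knockout and the library labelled OLFM4-active. The 2 were named after their values were seen. ENSG00000200492 (chromosome 6, 92119423 to 92119633, 75.9% identical to SNORD3A) had 600, 1643 and 850 counts and a log2 fold change of −0.05 in OLFM4-knockout against OLFM4-wild, so it did not share the members' difference. ENSG00000212195 (chromosome 17, 58631641 to 58631836, 68.3% identical), which lies inside TEX14 on the same strand, had 2, 205 and 39 counts. Its log2 fold change was 4.86 (3.31 to 8.24), with a baseline of 2 counts.

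Other snoRNAs moved with the members. Of 159 other snoRNA genes whose mean reached 1 CPM, 134 lay above 0 in OLFM4-knockout against OLFM4-wild, with a median log2 fold change of 0.79, where the median of all 16600 genes was 0.10. For the OLFM4-active-labelled library against OLFM4-wild, 146 of 159 lay above 0 and the median was 0.70, against 0.05 for all genes. Summed U3 lay above 86.8% and 67.9% of these snoRNAs in the same comparisons. All snoRNAs together took 0.434% of counts in OLFM4-wild, 0.744% in OLFM4-knockout and 0.668% in the library labelled OLFM4-active. Measured relative to the counts of other snoRNAs, the log2 fold changes of summed U3 were lower, at 0.75 and 0.60, and between OLFM4-knockout and the library labelled OLFM4-active those of SNORD3C and SNORD3B-2 were 0.03 and 0.04. The part of this class-wide difference in the members' values was not tested.

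Other classes of short RNA differed in their medians. For 43 entries annotated as snRNA, the median log2 fold change was 1.23 in OLFM4-knockout and 1.51 in the library labelled OLFM4-active, each against OLFM4-wild. For 13 small Cajal body RNAs the medians were 0.55 and 0.13. By entry length, other snoRNAs under 100 bases had a median of 1.08 (52 genes) in OLFM4-knockout against OLFM4-wild, those from 100 to under 200 bases 0.67 (98 genes) and those of 200 bases or more 0.90 (9 genes). The medians for the library labelled OLFM4-active were 0.94, 0.62 and 0.51. How well each library retained short RNA was not tested.

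The genes of the U3 particle proteins were higher as well, at log2 fold changes below those of summed U3. Only RNA was measured, here and for the lists below. A change of library scaling moves summed U3 and these genes by the same amount. Relative to the counts of other snoRNAs summed U3 was at 0.75 in OLFM4-knockout against OLFM4-wild. The protein genes were not placed on that scale, so their values here cannot be set against 0.75. RRP9, the protein particular to U3, had 193, 1390 and 394 counts in OLFM4-wild, OLFM4-knockout and the library labelled OLFM4-active, and a log2 fold change of 1.35 (1.13 to 1.57) in OLFM4-knockout. NOP56, a core box C/D protein, was at 1.23 (1.16 to 1.31), SNU13, which binds the kink-turn of the RNA, at 0.64 (0.53 to 0.74), NOP58 at 0.45 (0.35 to 0.56) and fibrillarin (FBL) at 0.38 (0.30 to 0.45). The values for the OLFM4-active-labelled library against OLFM4-wild were 0.63 for RRP9, 1.002 for NOP56, 0.55 for SNU13, 0.91 for NOP58 and 0.40 for FBL. Thus all 5 lay above 0 in both comparisons and, on library totals, in both again.

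Among the genes of all 43 listed proteins of the small subunit processome, these 5 included, 42 lay above 0 in OLFM4-knockout against OLFM4-wild. Of these genes 9 lay above 1, and the median log2 fold change was 0.70. Over all genes, 56.7% lay above 0. For the OLFM4-active-labelled library against OLFM4-wild, 42 of 43 lay above 0, where 53.9% of all genes did, 8 lay above 1 and the median was 0.66. Between OLFM4-knockout and the library labelled OLFM4-active, 22 of 43 lay above 0 and the median was 0.04. On library totals, 36 and 41 of 43 lay above 0 in the comparisons with OLFM4-wild, where 32.5% and 44.1% of all genes did. No test of the list was made.

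The subcomplexes were alike in this respect. In OLFM4-knockout against OLFM4-wild, all 6 UTP-A genes lay above 0, from WDR43 at 1.15 and UTP15 at 0.90 down to HEATR1 at 0.44 and UTP4 at 0.37. All 6 UTP-B genes did so too, with WDR3 at 1.51 and UTP18 at 0.94 at the upper end. TBL3 at 0.74 and PWP2 at 0.04 were the lowest, and PWP2, with 19, 56 and 25 counts, had an interval that included 0 (−0.71 to 0.89). Of the MPP10 complex, which acts in the pairing of U3 with the precursor, IMP3 was at 0.80, IMP4 at 0.65 and MPHOSPH10 at 0.24. Among 23 other processome factors, 22 lay above 0, led by NOL6 at 1.37 and NOC4L at 1.32. ESF1 at −0.56 (−0.73 to −0.39) was the only processome gene below 0, and KRR1 was at 0.16. On library totals 7 of the 43 lay below 0, PWP2, MPHOSPH10, KRR1 and ESF1 among them.

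Factors that assemble, cap and trim the RNA also lay mostly above 0, where 56.7% of all genes did, and 32.5% on library totals. All 8 box C/D assembly factors lay above 0 in OLFM4-knockout against OLFM4-wild, with a median log2 fold change of 0.47, and 4 of 8 did so on library totals. NUFIP1, a scaffold of assembly, was at 1.15 and RUVBL2, an ATPase, at 0.88, whereas ZNHIT6 was at 0.24 and NOPCHAP1 at 0.19. Of 7 factors of the cap, transport and Cajal bodies, 6 lay above 0 (3 on library totals), with NOLC1 at 0.67 and TGS1, the enzyme that makes the trimethyl cap, at 0.55. COIL was at 0.13 and the export receptor XPO1 at −0.36. All 17 genes of 3′ end trimming lay above 0 (14 on library totals), from EXOSC4 of the exosome at 1.57 and TOE1 at 1.02 to MTREX at 0.19 and PARN at 0.14. For the OLFM4-active-labelled library against OLFM4-wild, 6 of 8 assembly factors, 7 of 7 cap, transport and Cajal body factors and 14 of 17 trimming genes lay above 0. Over all genes 53.9% did.

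The 2 lists for transcription of the members differed in their counts, a difference that was not tested. In OLFM4-knockout against OLFM4-wild 56.7% of all genes lay above 0 (32.5% on library totals), and 53.9% did in the OLFM4-active-labelled library against OLFM4-wild. Of 11 factors of snRNA-type promoters, 5 lay above 0 in OLFM4-knockout against OLFM4-wild (1 on library totals), and the median was −0.16. ELL was at 0.67 and SNAPC4 at 0.35, while POU2F1 was at −0.50 and SNAPC3, a subunit of the complex that binds these promoters, at −0.51. The median for the OLFM4-active-labelled library was −0.09, with 5 of 11 above 0. Of 14 Integrator subunits, which form the 3′ ends of these RNAs, 12 lay above 0 (7 on library totals), with a median of 0.33 and with INTS5 at 0.92, INTS9 at 0.62, INTS6 at −0.05 and INTS7 at −0.20. For the OLFM4-active-labelled library, 13 of 14 did.

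**Figure D5:**
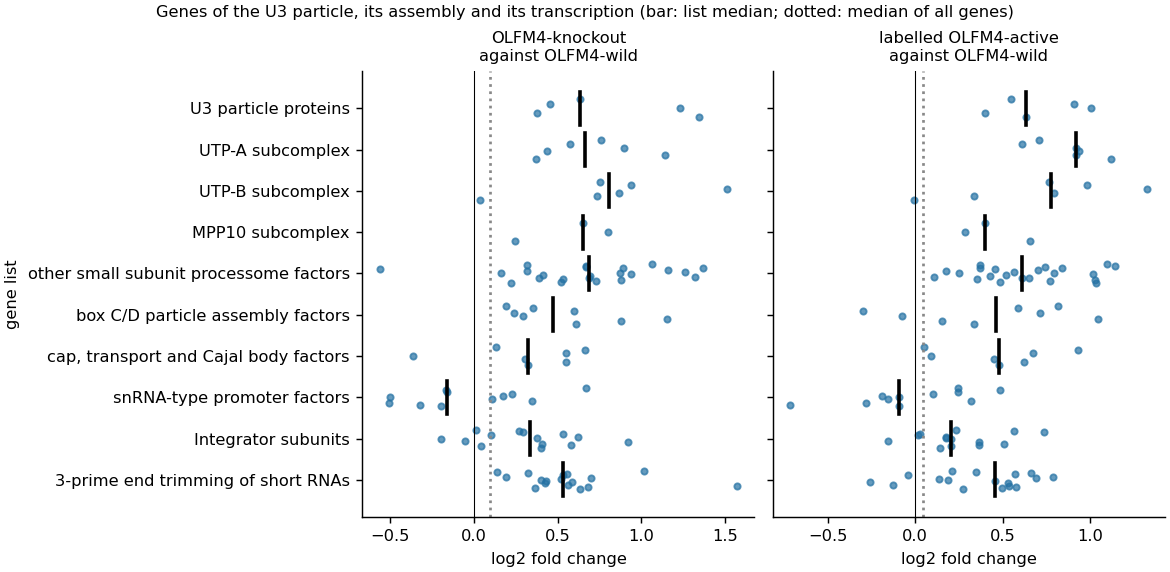
Log2 fold change of each listed protein gene of the U3 pathway against OLFM4-wild (points) in the OLFM4-knockout (left) and OLFM4-active-labelled (right) libraries; bars are list medians and the dotted line is the median of all 16600 genes. The medians of the lists of particle and processome proteins lie between 0.64 and 0.81 on the left, and that of the snRNA-type promoter factors lies at −0.16.

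Other snoRNAs of precursor cleavage lay on the same side. All 9 entries whose mean reached 1 CPM lay above 0 in OLFM4-knockout against OLFM4-wild (8 on library totals), and 6 lay above 1. Among the 159 other snoRNAs, 134 lay above 0 and 64 above 1, and over all genes 56.7% and 5.77% did. SNORD14D (22, 258 and 93 counts) was at 2.02 and SNORD14E (19, 209 and 66 counts) at 1.93, while SNORD13 was at 0.41 and SNORD14B at 0.19. SNORD14B had an interval that included 0 (−0.25 to 0.67).

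The snRNAs that share the promoter type of U3 were mostly higher than in OLFM4-wild. Of 14 entries of RNA polymerase II snRNAs, 13 lay above 0 in OLFM4-knockout against OLFM4-wild (9 on library totals), and 14 of 14 did in the library labelled OLFM4-active. Over all genes, 56.7% did in the first comparison (32.5% on library totals) and 53.9% in the second. Between OLFM4-knockout and the library labelled OLFM4-active only 1 of the 14 lay above 0, with a median of −0.39, where summed U3 was at 0.50. In that comparison 56.7% of all genes lay above 0. RNU4ATAC had 15, 196 and 94 counts and was at 2.17 (1.45 to 3.07), and RNU5F-1 had 64, 749 and 381 counts and was at 2.04 (1.68 to 2.44). RNU5E-1 at 0.03 and RNU5B-1 at −0.06 showed little difference in OLFM4-knockout, but 1.19 and 1.10 in the library labelled OLFM4-active. Of 9 entries of RNA polymerase III short RNAs, 8 lay above 0 in OLFM4-knockout against OLFM4-wild (7 on library totals), where 56.7% of all genes did (32.5% on library totals). RNU6-2 was at 2.50 (1.68 to 3.59) and RN7SL2, an RNA of the signal recognition particle, at 1.82, whereas RN7SK was at 0.33 and RNU6ATAC at −0.23. Many of these genes have near-identical copies, so their counts are uncertain as those of U3 are. The product of the pathway could not be followed, because ribosomal RNA had been depleted and the 3 listed ribosomal RNA entries, all of 5.8S rRNA, had at most 9 counts in a library.

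Among the 10591 genes whose mean reached 10 CPM, genes whose pair of log2 fold changes against OLFM4-wild lay nearest to that of summed U3 (1.66 and 1.17) included BMP7 (1.66 and 1.13), SGK1 (1.62 and 1.16), HOXC13-AS (1.58 and 1.10) and POP1 (1.55 and 1.16). Their distances were between 0.04 and 0.11 log2 units, over 3 libraries. The measure rests on 2 numbers per gene.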

How the data were processed

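The members and gene lists were chosen with earlier results of these data known. Per the labels, total RNA of RWPE1 cells was extracted with RNeasy plus Mini kits and libraries were made with a stranded total RNA kit with Ribo-Zero. The authors trimmed reads with cutadapt, aligned them with HISAT2 to GRCh38 and used featureCounts to assign uniquely mapped pairs to genes on the reverse strand. They deposited whole-number counts without normalization. The GENCODE release that they used is not given in the sources used here, and entry lengths in it may differ from those in version 44, which holds 56948 of the 58037 identifiers (98.1%).

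From the counts, TMM factors (1.11, 0.872 and 1.03 for OLFM4-wild, OLFM4-knockout and the library labelled OLFM4-active) were computed with edgeR 4.0.16 in R 4.3.3, and log2 fold changes of CPM with an offset of 0.5 counts, as in voom. With 1 library per condition no test between conditions could be fitted. Clopper-Pearson intervals at 95% were taken with scipy 1.17.1 in Python 3.11.15. A count of 3 corresponds to 0.165, 0.0584 and 0.126 CPM. Differences were counted among the 16600 genes whose mean over the 3 libraries reached 1 CPM. The procedure was tested on simulated data.

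Named genes were the members, genes that overlap them, OLFM4, the 2 highest and 2 lowest of each of 14 lists of the U3 pathway in OLFM4-knockout against OLFM4-wild (all where a list has 5 or fewer), and the 5 genes nearest to summed U3. A few genes that these rules or the marker lists would name are not reported here. RNA sequences and coordinates come from RefSeq's annotation of GRCh38. Windows of 75 bases were matched exactly to 25 reference chromosomes on both strands. Alternatives were library totals, size factors of DESeq2 1.42.0, upper quartile factors, totals without the 10 most abundant and mitochondrial genes, offsets of 1 and 5 counts, thinning to 16309906 counts, scaling to other snoRNAs, filters on low counts, and other sets of U3 entries.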

Additional observations from a re-analysis of the deposited data

How the results depend on the processing

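No summed value changed sign under any alternative. The log2 fold change of summed U3 in OLFM4-knockout against OLFM4-wild was 1.31 on library totals, 1.57 with upper quartile factors, 1.40 on totals without the 10 most abundant and mitochondrial genes, 0.75 relative to the counts of other snoRNAs, 1.63 with every entry annotated as U3 and, in a setting added after seeing the data, 1.64 without SNORD3B-1. In the OLFM4-active-labelled library against OLFM4-wild it was 1.05 on library totals, 1.04 without the abundant genes, 0.60 relative to other snoRNAs, 1.20 for SNORD3A alone, 1.14 with every U3 entry and 1.10 without SNORD3A, the last also added. In OLFM4-knockout against the OLFM4-active-labelled library it was 0.26, 0.39, 0.37 and 0.15 for totals, upper quartile, abundant genes left out and other snoRNAs, 0.46 for SNORD3A alone, 0.47 without SNORD3B-1 and 0.56 without SNORD3A. For SNORD118 the scaling to other snoRNAs gave 1.55, 1.95 and −0.41 in the 3 comparisons.

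Counts of genes beyond a log2 fold change of 2 depended on the filter. In OLFM4-knockout against OLFM4-wild, 110 lay above 2 and 239 below −2; library totals gave 61 and 428, totals without the abundant genes 66 and 378, and an offset of 5 counts gave 71 above. A filter at 10 counts over both libraries gave 454 and 1094, and 1 count in either gave 825 and 4303. In the OLFM4-active-labelled library against OLFM4-wild, 84 and 255 became 359 and 854, and 1305 and 2877, under these filters. In OLFM4-knockout against the OLFM4-active-labelled library, 43 and 29 became 26 and 51 on library totals, 24 above with an offset of 5 counts, and 401 and 461, and 1277 and 2898, under the filters. The looser filters admit genes of few counts.

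No paired analysis was possible because each condition has 1 library, and for the same reason no library could be left out. Depth limits SNORD118 most, at 26 counts in OLFM4-wild.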
